A study of Mus musculus with 8 samples.

Results

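Transcripts of mechanosensitive ion channels were described in primary mouse peritoneal mesothelial cells (MCs), the cells that line the peritoneal cavity. The 10 members were listed by name (Piezo1, Piezo2, Trpv2, Trpv4, Trpc1, Trpm7, Pkd1, Pkd2, Tmem63a and Tmem63b), and all 10 were found among the 13687 genes of the deposited table. The names were not picked by a measured value, but they were chosen with earlier results of these data known. MCs came from 4 mice, 2 wild-type (WT) littermates (animals 3 and 4) and 2 mice lacking caveolin-1 (B6.Cg-CAV1tm1mls/J, animals 1 and 2; CAV1-/-), and each animal gave 1 culture kept static and 1 culture stretched for 24 h after confluence. The 4 groups of 2 cultures are thus static WT, stretched WT, static CAV1-/- and stretched CAV1-/-, with 8 RNAseq libraries in all. The CAV1-/- allele is present in every cell of the animal, cells were obtained by trypsin digestion of the parietal peritoneum, and the ages of the animals were not given in the sources used here. The comparisons address how stretch and the loss of CAV1, the coat protein of caveolae, bear on MC transcripts.

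Mechanosensitive channels are membrane proteins that open when the bilayer or the cytoskeleton is pulled, and let cations including calcium into the cell. Piezo channels respond directly to membrane tension, TMEM63 proteins are relatives of the plant osmosensing OSCA channels, and several channels of the TRP superfamily respond to stretch or swelling either directly or downstream of other signals. Caveolae are flask-shaped membrane pits that flatten under tension and thereby set how much of a pull reaches such channels. Mesothelium is stretched by breathing, bowel movement and dialysis fluid.

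Values are TMM-normalized CPM, that is, reads scaled to a common library total that is adjusted by the trimmed mean of M-values, and are called normalized CPM here. The libraries held between 9777738 and 21203938 reads, and all 4 stretched libraries (15861571 or more) were deeper than all 4 static ones (14237503 or fewer), so depth cannot be told apart from stretch. The deleted gene was low in every CAV1-/- library: Cav1 read 764 and 275 normalized CPM in static WT and 569.9 and 247 in stretched WT cultures, against 34.5 and 18.9 in static and 20.04 and 12.8 in stretched CAV1-/- cultures. Of 16 mesothelial markers 15 were in the table (Calb2 was not), and their summed level ranged from 3140 to 4157 in WT and from 928 to 1180 in CAV1-/- libraries. Leukocyte markers stood apart in both cultures of CAV1-/- animal 1, where 15 markers summed to 4943 (static) and 4930 (stretched) against 86 to 487 in the other 6 libraries. RNA came from whole cultures, so fewer cells of a type cannot be told apart from less RNA per cell.

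Promoter windows of 300 bases, 250 before and 50 after a transcript's start, were taken from RefSeq on GRCm38.p6, in which 9 of the 10 members were matched by 11 windows. The windows are given for Piezo1, the member with the highest level, and for Tmem63a, Trpc1 and Pkd2, each of which lay on 1 side of its static value in all 4 animals. They are written 5' to 3' on the gene's strand in lower case, and capitals mark GGAATG (or CATTCC on the other strand), the core of the TEAD motif to which the stretch-responsive cofactor YAP is recruited.
Piezo1 (chr8:122551280-122551579, minus strand): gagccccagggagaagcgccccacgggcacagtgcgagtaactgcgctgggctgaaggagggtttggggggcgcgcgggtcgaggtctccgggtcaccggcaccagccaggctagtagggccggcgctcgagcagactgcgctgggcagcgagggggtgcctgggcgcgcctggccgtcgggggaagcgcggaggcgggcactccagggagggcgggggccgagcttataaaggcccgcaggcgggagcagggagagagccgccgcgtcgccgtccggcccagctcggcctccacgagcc
Tmem63a (chr1:180942268-180942567, plus strand): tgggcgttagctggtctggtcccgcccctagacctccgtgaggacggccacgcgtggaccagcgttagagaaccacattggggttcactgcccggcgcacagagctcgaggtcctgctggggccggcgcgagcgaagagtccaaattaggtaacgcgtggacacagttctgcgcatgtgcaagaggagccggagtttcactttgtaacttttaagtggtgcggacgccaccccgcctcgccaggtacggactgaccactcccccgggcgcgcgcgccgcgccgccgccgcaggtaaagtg
Trpc1 (chr9:95750299-95750598, minus strand): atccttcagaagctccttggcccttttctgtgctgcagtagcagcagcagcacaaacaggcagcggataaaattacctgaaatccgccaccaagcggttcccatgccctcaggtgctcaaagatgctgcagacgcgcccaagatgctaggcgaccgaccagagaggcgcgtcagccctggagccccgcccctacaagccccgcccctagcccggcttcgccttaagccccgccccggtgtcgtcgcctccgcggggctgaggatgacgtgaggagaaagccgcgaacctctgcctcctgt
Pkd2 (chr5:104459207-104459506, plus strand): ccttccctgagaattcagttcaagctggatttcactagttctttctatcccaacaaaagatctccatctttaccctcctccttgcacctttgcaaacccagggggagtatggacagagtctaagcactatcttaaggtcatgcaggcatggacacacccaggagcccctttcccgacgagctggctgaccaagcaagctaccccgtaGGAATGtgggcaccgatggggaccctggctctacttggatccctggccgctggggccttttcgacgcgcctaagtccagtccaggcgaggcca

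The TEAD core, searched on both strands, lay in 2 of the 11 windows. They were the window of Pkd2, where it began 43 bases before the start, and 1 of the 3 windows of Trpv2, where it began 188 bases before the start. It is in 14.7% of all 32851 mouse windows, so a share of this size is common. The AP-1 core TGANTCA, which reads the same on both strands, lay in 0 of the 11 windows and in 7.81% of all. Without an AP-1 core in a member's window, the motifs could not overlap there. Trpv2 had the fewest CpG dinucleotides of the matched members, at 2, 2 and 7 in its 3 windows. The windows with 2 share most of their bases and are not separate observations. The other members held 9 in Pkd2, 18 in Pkd1, 22 in Trpc1 and 30 to 35 in Trpv4, Tmem63a, Piezo1, Tmem63b and Trpm7. The median over all windows was 7, and 23.3% of them held at most 2. These counts are a description of the sequence.

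Per length, Piezo1 had the highest level of the 10 members, and it was also above the 30 other channel genes that were read beside them. Dividing by the length of annotated exon (GENCODE M21), the mean over 8 libraries was 67.5 normalized CPM per kb for Piezo1, which was above 95.1% of the genes with a length. Tmem63a followed at 23.9, Tmem63b at 15.1, Pkd2 at 14.2, Pkd1 at 12.3 and Trpm7 at 11.4 per kb. Trpv2 stood lower at 3.57 per kb, Piezo2 at 1.25, Trpc1 at 0.704 and Trpv4 at 0.575. Ranges over the 8 libraries did not overlap between Piezo1 (lowest 56.6) and Tmem63a (highest 27.7), between Tmem63a (lowest 18.8) and Tmem63b (highest 17.2), or between Trpm7 (lowest 8.93) and Trpv2 (highest 8.43). All other neighbours in this order overlapped. Tmem63b, Pkd2, Pkd1 and Trpm7 all overlapped each other and are called the middle members. The 4 lowest members did not, since the lowest Trpv2 value (1.48) was above the highest of Trpc1 (1.11) and Trpv4 (0.875). With the length of the longest transcript, Pkd2 (27.6 per kb) passed Tmem63b (23.4) and Trpm7 (18.1) passed Pkd1 (15.2). Piezo1 then still stood apart from Tmem63a, and Pkd1 from Trpv2, but the range of Tmem63a (25.6 to 37.6) overlapped those of Pkd2 (24.2 to 35.5) and Tmem63b (20.5 to 26.7), so the step below Tmem63a was lost. The middle members then no longer all overlapped, since the lowest Pkd2 value was above the highest of Trpm7 (21.2) and Pkd1 (18.4).

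**Figure D1:**
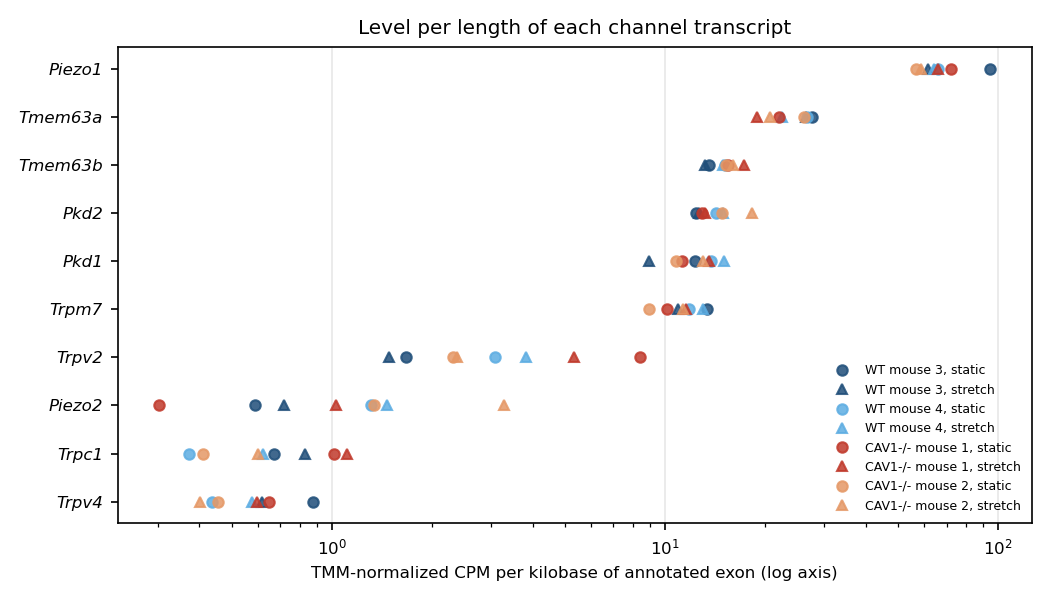
Normalized CPM per kb of annotated exon (log axis) for the 10 members, ordered by their mean, with circles for static and triangles for stretched cultures and a colour per mouse. Piezo1 lies at 56.6 to 94.8 per kb in all 8 libraries, apart from Tmem63a at 18.8 to 27.7, and the 4 lowest members spread widely between mice.

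No member passed an adjusted p under 0.05 (limma on log2(value + 1), 8 libraries, 2 cultures per group) in any comparison, and edgeR and DESeq2 on the recovered reads also called 0 members. For stretch this held for the whole table, with 0% of 13665 genes called in WT, in CAV1-/- and for the genotype by stretch interaction. Between genotypes 0.0732% of genes were called in static and 0.0585% in stretched cultures. The deleted gene Cav1 was not among them, at a log2 fold change of -4.11 (limma adjusted p = 0.102) in static cultures. In stretched cultures it was -4.47 (limma adjusted p = 0.124). The lack of a call in this fit therefore does not show that a member was unchanged. At an unadjusted p of at most 0.05 the members numbered 0 for stretch in WT (2.27% of all genes), 0 for stretch in CAV1-/- (2.09%), 0 between genotypes on stretch (6.26%) and 0 for the interaction (0.483%). They numbered 1, Trpm7, between static genotypes (8.17% of all genes, 5.42% lower in CAV1-/-). The median log2 fold change of the members was -0.04 for stretch in WT (all genes -0.02), 0.14 for stretch in CAV1-/- (all genes 0.00), -0.16 between static genotypes (all genes -0.01) and 0.17 between stretched genotypes (all genes 0.00). An exact permutation test of 2 against 2 cultures cannot go below p = 0.333.

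Static and stretched cultures of 1 animal are pairs, and a fit with the animal as a block changed 1 call at an adjusted p under 0.05. For stretch averaged over both genotypes the block called 1 member, Piezo2, higher, where 1.47% of all genes were called in either direction and 0.615% higher. The stretched culture was above the static one in all 4 animals for Piezo2, Trpc1 and Pkd2 (14.5% of all genes) and below it in all 4 for Tmem63a (16.9%). At an unadjusted p of at most 0.05 with the block, Piezo2, Trpc1 and Tmem63a passed for this mean, where 21% of all genes did. At the same limit with the block 0 members passed for stretch in WT (14.5% of all genes), 2, Piezo2 and Tmem63a, for stretch in CAV1-/- (13.3%) and 1, Piezo2, for the interaction (4.25%; limma unadjusted p = 0.000558, adjusted p = 0.947). The 95% Poisson intervals of the static and the stretched culture overlapped in all 4 animals for Trpc1 and in 3 for Pkd2. They also overlapped in both WT animals for Piezo2 and in 1 animal for Tmem63a. Overlap of the intervals alone does not show that a paired distance was within counting error.

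**Figure D2:**
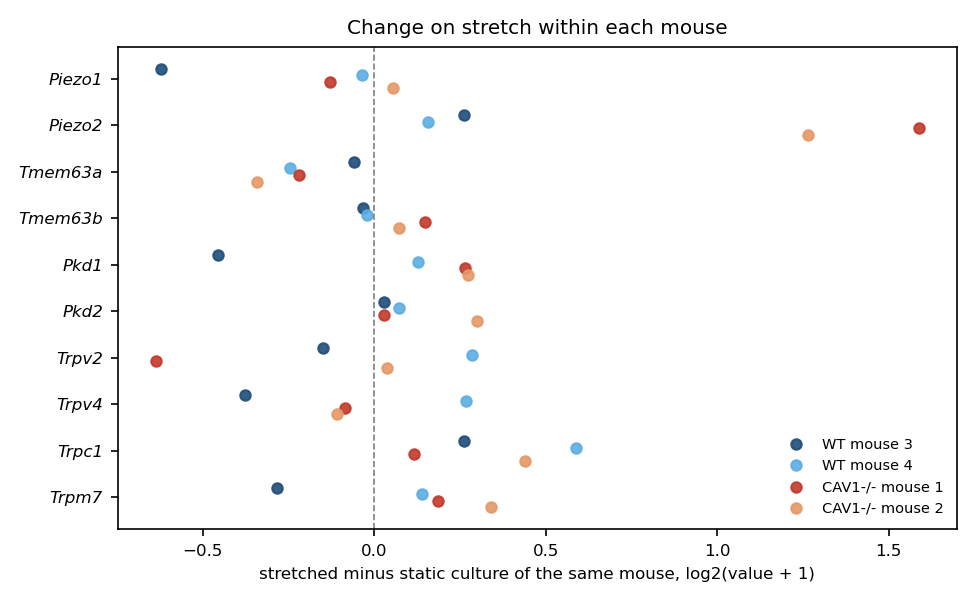
Difference between the stretched and the static culture of each mouse on the log2(value + 1) scale, 1 dot per mouse. Piezo2 lies at 1.26 and 1.59 in the CAV1-/- mice and at 0.16 and 0.26 in the WT mice, Trpc1 and Pkd2 lie to the right of 0 in all 4 mice, and Tmem63a lies to the left in all 4.

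Piezo1 (ENSMUSG00000014444, chr8:122481698-122551329, minus strand, GRCm38) encodes the trimeric cation channel that senses membrane tension in epithelia and vessels. It read 942 and 655 normalized CPM in static WT cultures (animals 3 and 4) and 612 and 639.6 in stretched ones. In CAV1-/- cultures (animals 1 and 2) it read 717 and 562 when static and 656 and 584 on stretch. The static culture of animal 3 was the highest and the WT groups did not overlap (lower on stretch in 17.2% of all genes), whereas the CAV1-/- groups overlapped. The log2 fold change on stretch was -0.33 (SE 0.22; 95% CI -0.86 to 0.20) in WT and -0.04 (SE 0.22) in CAV1-/- MCs. Between genotypes it was -0.31 in static and -0.02 in stretched cultures, with overlap in both. Its exons share 2441 bp with Ctu2 on the other strand, and the library kit is not stated to keep strand, so reads of that stretch may come from either gene; Ctu2 had a mean of 29.8 normalized CPM against 671 for Piezo1.

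Piezo2 (ENSMUSG00000041482), the related channel known from touch and limb position sense in sensory neurons, was the member that varied most. It read 10.1 and 22.4 normalized CPM in static and 12.3 and 25.1 in stretched WT cultures. In CAV1-/- MCs it read 5.19 and 22.9 when static and 17.6 and 56.5 on stretch. The stretched culture was higher in every animal, 3.39- and 2.46-fold in CAV1-/- and 1.22- and 1.12-fold in WT animals, while the groups overlapped in each genotype, since animals 2 and 4 were above animals 3 and 1 throughout. These values rest on 63 to 1032 reads, and the 95% Poisson intervals, which cover counting error only, were 3.99 to 6.64 in the static and 15.8 to 19.5 in the stretched culture of animal 1.
Averaged over both genotypes the log2 fold change on stretch was 0.82 (SE 0.60), with an adjusted p of 0.991 in the fit without the block and 0.0291 with it. With the block it was 0.74 without animal 1, 0.90 without animal 2, 0.79 without animal 3 and 0.84 without animal 4. These fits leave 1 residual degree of freedom. Whether Piezo2 was called in them depended on the animal left out, as did the number of genes called in the whole table. The log2 fold change was 1.43 (SE 0.85; 95% CI -0.63 to 3.49) in CAV1-/- and 0.21 (SE 0.85; 95% CI -1.85 to 2.27) in WT MCs. The blocked adjusted p was 0.0973 and 0.509, respectively. The difference between these responses was 1.22 (SE 1.196), with an adjusted p of 1.00 without and 0.947 with the block, so it was not shown to differ between genotypes. Between genotypes the log2 fold change was -0.40 in static and 0.81 in stretched cultures, with overlap in both. The summed level of fibroblast markers (10 of 10 in the table, none at 0) followed the same division of animals. The markers summed to 18151 and 13485 in the static and stretched cultures of animal 4 and 20324 and 17949 in those of animal 2, against 11612 and 9261 in animal 3 and 8810 and 8494 in animal 1. Col1a1, a chain of type I collagen, made up 62.8% to 91.6% of the sum. Of the 10 markers 7 placed animals 2 and 4 above animals 1 and 3 in both conditions, and Fap, S100a4 and Dpp4 did not. Dpp4, for one, read 154 and 111 normalized CPM in the static cultures of animals 3 and 4 and 7.09 and 6.78 in those of animals 1 and 2. The share of all genes that placed animals 2 and 4 above animals 1 and 3 was not counted. A looser rule compares animal 2 with 1 and animal 4 with 3 only. By it, 43.1% of all genes kept 1 order, in either direction, in both conditions. The sum was lower on stretch in all 4 animals while Piezo2 was higher, and the part of these markers in the level of Piezo2 was not tested.

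**Figure D3:**
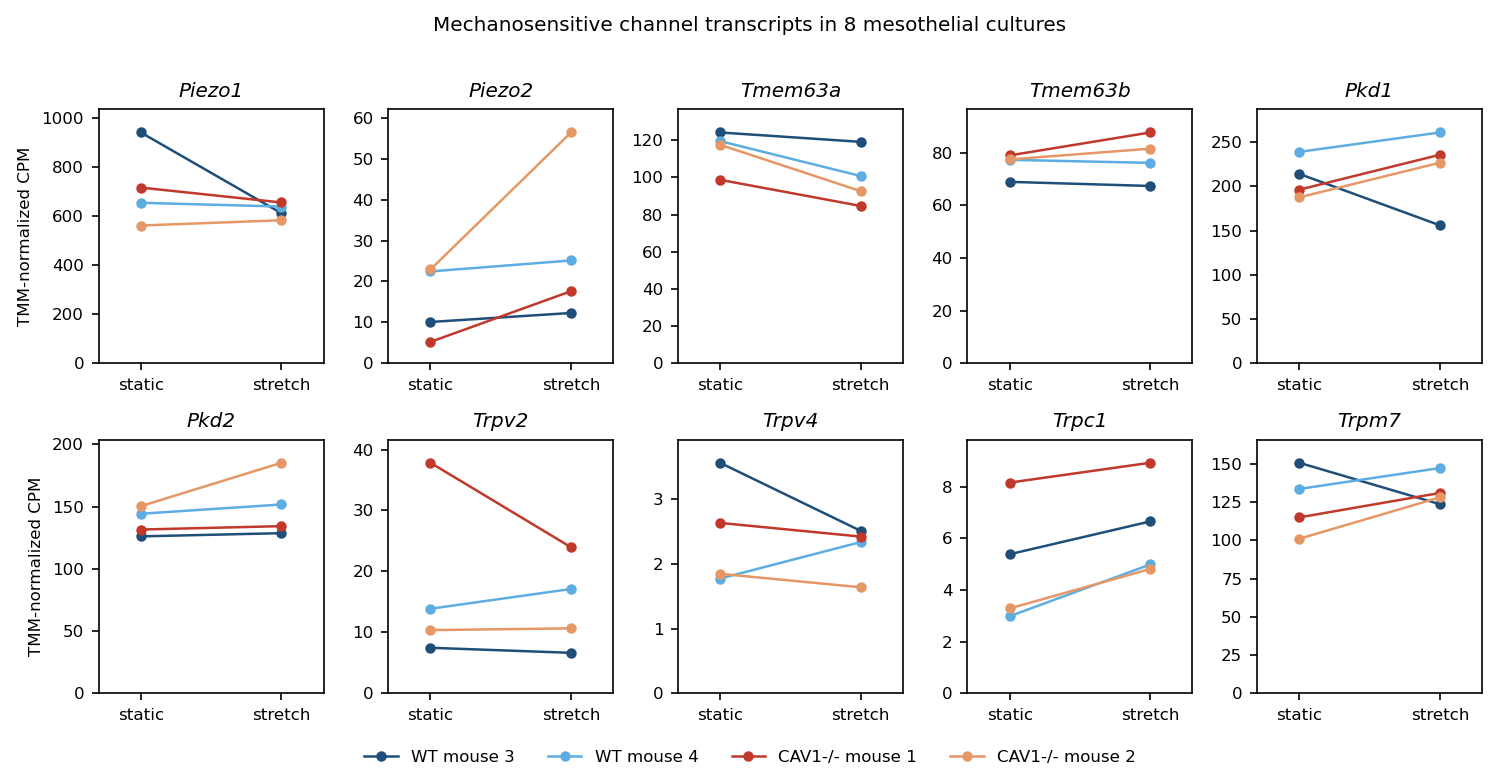
Normalized CPM of each member in the static and the stretched culture of each mouse, joined by a line, with each vertical axis starting at 0. Piezo2 differs most between static and stretch in the CAV1-/- mice (5.19 to 17.6 and 22.9 to 56.5), and Trpv2 is highest in both cultures of CAV1-/- mouse 1 (37.8 and 24.0).

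The TMEM63 genes encode channels that open at high membrane tension. Tmem63a (ENSMUSG00000026519, chr1:180942344-180975112, plus strand, GRCm38) read 124 and 119.6 normalized CPM in static and 119 and 101 in stretched WT cultures, and 98.7 and 118 in static and 84.7 and 92.6 in stretched CAV1-/- cultures. Each stretched culture was below the static culture of its animal, and the groups did not overlap in any of the 4 comparisons. Such separation was found in 17.2% of genes for lower values on stretch in WT, 11.9% in CAV1-/-, 20.8% for lower values in static CAV1-/- and 15.9% in stretched CAV1-/- cultures. The log2 fold change on stretch over both genotypes was -0.22 (SE 0.10), with an adjusted p of 0.984 and, with the block, 0.137. In stretched CAV1-/- against stretched WT cultures it was -0.30 (SE 0.14; 95% CI -0.65 to 0.04; adjusted p = 0.867).

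Tmem63b (ENSMUSG00000036026, chr17:45660171-45686905, minus strand, GRCm38) lay on the other side. It read 69.0 and 77.4 normalized CPM in static and 67.4 and 76.2 in stretched WT cultures, and 79.0 and 77.5 in static and 87.8 and 81.6 in stretched CAV1-/- cultures. Both CAV1-/- cultures were above both WT cultures without and with stretch, as in 16.1% and 14.6% of genes. The static distance was narrow, 77.5 against 77.4, and the log2 fold change was 0.10 (SE 0.12). On stretch it was 0.24 (SE 0.12; 95% CI -0.05 to 0.53; adjusted p = 0.890). Stretched values were just below static ones in both WT animals and above them in both CAV1-/- animals, a division found in 8.98% of genes, but the 95% Poisson intervals of the paired cultures overlapped in all 4 animals. It shares 106 bp of exon with Mrpl14 on the other strand (mean 26.0 normalized CPM), which could not be separated without strand.

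Polycystin-1, the product of Pkd1, is a large receptor-like protein that assembles with polycystin-2, the cation channel encoded by Pkd2, at the primary cilium. Pkd1 (ENSMUSG00000032855, chr17:24549834-24596508, plus strand, GRCm38) read 214 and 239 normalized CPM in static and 156 and 261 in stretched WT cultures, and 196 and 188 in static and 236 and 227 in stretched CAV1-/- cultures. The stretched WT cultures enclosed all other libraries, and the CAV1-/- groups did not overlap (higher on stretch in 12.4% of genes). The log2 fold change on stretch was -0.16 (SE 0.24) in WT and 0.27 (SE 0.24) in CAV1-/- MCs, and the difference between them was 0.43 (SE 0.33). Its exons share 693 bp with Tsc2 (mean 88.8 normalized CPM) on the other strand.

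Pkd2 (ENSMUSG00000034462, chr5:104459450-104505819, plus strand, GRCm38) read 126 and 144 normalized CPM in static and 129 and 152 in stretched WT cultures, and 132 and 150.4 in static and 134 and 185 in stretched CAV1-/- cultures. All 4 animals were higher on stretch, by 1.02- to 1.23-fold, with the stretched culture of animal 2 the highest, and all groups overlapped. Over both genotypes the log2 fold change on stretch was 0.11 (SE 0.13; 95% CI -0.22 to 0.44), with a blocked adjusted p of 0.400. Per kb of annotated exon, the pair differed in order between libraries, with Pkd2 above Pkd1 in 6 of 8. This depended on the length used. With the length of the longest transcript, the lowest Pkd2 value (24.2 per kb) was above the highest Pkd1 value (18.4).

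Trpv4, a calcium channel opened by swelling, warmth and lipid products of stretch, was the lowest member per length. Trpv4 (ENSMUSG00000014158, chr5:114622152-114658421, minus strand, GRCm38) read 3.57 and 1.78 normalized CPM in static and 2.51 and 2.34 in stretched WT cultures, and 2.64 and 1.85 in static and 2.43 and 1.64 in stretched CAV1-/- cultures. These are 18 to 51 reads, all above the detection floor of 3 reads, and all groups overlapped. The 95% CI of the log2 fold change on stretch was -0.83 to 0.72 in WT and -0.88 to 0.68 in CAV1-/- MCs. Changes of either sign within these limits are compatible with the values, and the smallest detectable change was not worked out.

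Trpv2, a calcium-permeable relative of Trpv4 with a known place in macrophages, had its extremes in 1 mouse. Trpv2 (ENSMUSG00000018507, chr11:62574486-62600515, plus strand, GRCm38) read 7.48 and 13.9 normalized CPM in static and 6.66 and 17.1 in stretched WT cultures, and 37.8 and 10.4 in static and 24.0 and 10.7 in stretched CAV1-/- cultures. Both cultures of CAV1-/- animal 1 were the highest of all, the other 6 lay between 6.66 and 17.1, and the genotypes overlapped in both conditions. The log2 fold change between genotypes was 0.90 (SE 0.74) in static and 0.54 (SE 0.74) in stretched cultures. Without both cultures of animal 1 it was 0.02 and -0.01.
Leukocyte markers were highest in the same 2 libraries for 14 of the 15 markers in the table. Lyz2, a lysozyme of macrophages and neutrophils, read 3647 and 3920.2 normalized CPM there and 27.5 to 345 in the other 6. Ptprc, the pan-leukocyte antigen CD45, read 37.6 and 30.8 there and 0.969 to 4.27 elsewhere. No leukocyte marker was at 0 in any library. The summed marker range was 85.8 to 461 in static WT, 90.7 to 487 in stretched WT, 330 to 4943 in static CAV1-/- and 360 to 4930 in stretched CAV1-/- cultures. Within WT the order was opposite, with Trpv2 higher in animal 4, where the markers were lower. The part of these markers in the level of Trpv2 was not tested.

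**Figure D4:**
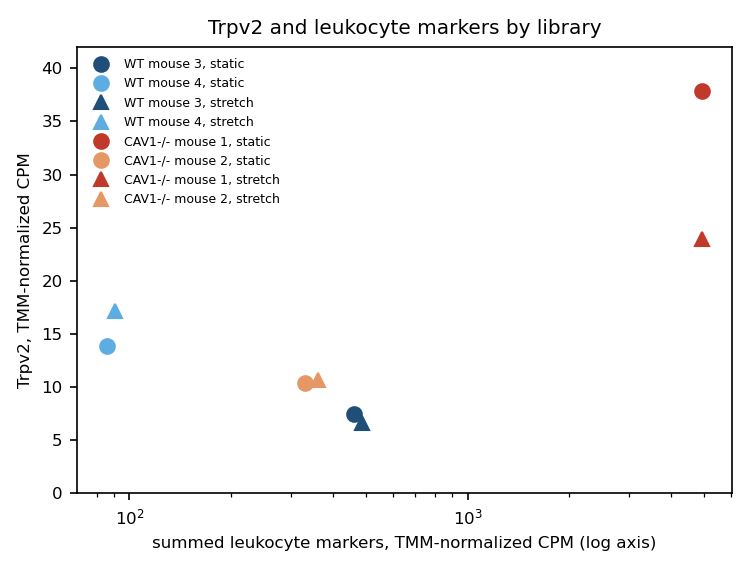
Trpv2 (normalized CPM) against the summed level of 15 leukocyte markers (log axis) in each library, with circles for static and triangles for stretched cultures. The 2 cultures of CAV1-/- mouse 1 lie apart at marker sums of 4943 and 4930 with Trpv2 at 37.8 and 24.0, and the other 6 lie at Trpv2 values of 6.66 to 17.1.

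Trpc1 encodes a subunit of cation channels tied to calcium store refilling, and its protein is known to bind caveolin-1. Trpc1 (ENSMUSG00000032839, chr9:95705082-95750375, minus strand, GRCm38) read 5.39 and 2.99 normalized CPM in static and 6.66 and 4.99 in stretched WT cultures, and 8.16 and 3.29 in static and 8.93 and 4.82 in stretched CAV1-/- cultures. All 4 animals were higher on stretch, by 1.09- to 1.67-fold, and the groups overlapped since animals 1 and 3 were above animals 2 and 4 in both conditions. The log2 fold change on stretch over both genotypes was 0.35 (SE 0.33; 95% CI -0.46 to 1.16), with a blocked adjusted p of 0.203. The values rest on 32 to 184 reads. Between genotypes it was 0.31 (SE 0.47) in static and 0.17 (SE 0.47) in stretched cultures, and without both cultures of animal 1 it turned to -0.23 and -0.22. The summed level of smooth muscle markers (7 of 8 in the table, none at 0) divided the animals in the same way. The markers summed to 7358 and 5561 in the static and stretched cultures of animal 1 and 5036 and 3854 in those of animal 3, against 3315 and 3118 in animal 2 and 2872 and 2436 in animal 4. Acta2, smooth muscle actin, made up 78.8% to 86.2% of the sum. Of the 7 markers 5 placed animals 1 and 3 above animals 2 and 4 in both conditions. The share of all genes that did so was not counted, and by the looser rule given for Piezo2 it was 43.1% in either direction. Pdgfrb, a growth factor receptor of pericytes, ran the opposite way, at 69.4 and 37.2 normalized CPM in the static cultures of animals 1 and 3 against 149.7 and 204 in those of animals 2 and 4, and Cspg4 followed neither order. Their part in the level of Trpc1 was not tested.

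Trpm7 encodes a magnesium- and calcium-permeable channel fused to a kinase. Trpm7 (ENSMUSG00000027365, chr2:126791565-126876230, minus strand, GRCm38) read 151 and 134 normalized CPM in static and 124 and 147 in stretched WT cultures, and 115 and 101 in static and 131 and 128 in stretched CAV1-/- cultures. Both static CAV1-/- cultures were below both static WT cultures, as in 20.8% of genes, and were the lowest of all libraries. The static log2 fold change against WT was -0.39 (SE 0.14; 95% CI -0.73 to -0.06; limma unadjusted p = 0.0278; adjusted p = 0.507). On stretch it was -0.06 (SE 0.14), with overlap. In CAV1-/- MCs both stretched cultures were above both static ones, as in 12.4% of genes, and the log2 fold change was 0.26 (SE 0.14, 95% CI -0.07 to 0.60). In WT it was -0.07 (SE 0.14), and the difference of the responses was 0.33 (SE 0.19; adjusted p = 1.00).

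**Figure D5:**
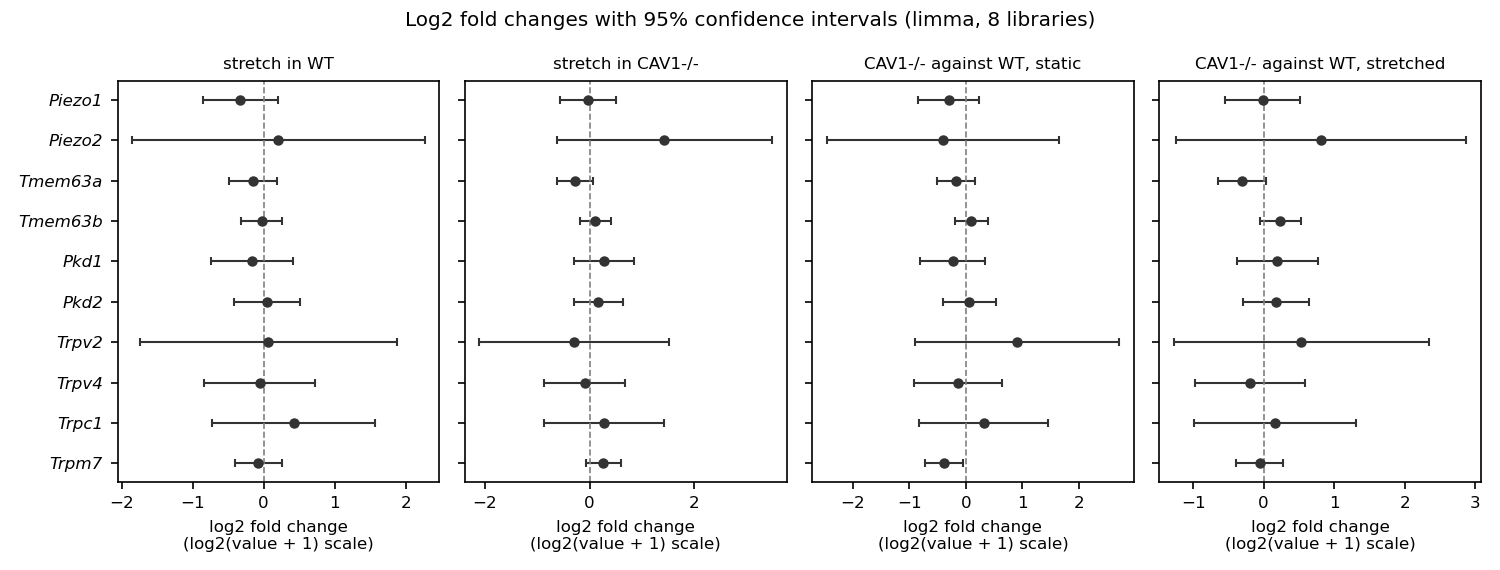
Log2 fold changes of the 10 members with 95% confidence intervals from limma in 4 comparisons, with each horizontal axis scaled to its own values. The interval leaves out 0 for Trpm7 between static genotypes (-0.73 to -0.06) and covers 0 for all other members and comparisons drawn.

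Differences between animals were of the size of the differences between conditions for most members. Animals with the same replicate number come from different genotypes and are not pairs, yet 4 of 10 members kept 1 order of the numbers in all 4 groups: Piezo2 and Pkd2 were higher in animals 2 and 4 than in animals 1 and 3, and Trpv4 and Trpc1 were lower. Such an order was found in 43.1% of all genes. The highest library exceeded the lowest 10.9-fold for Piezo2, 5.68-fold for Trpv2, 2.99-fold for Trpc1 and 2.17-fold for Trpv4. It exceeded the lowest by 1.302- to 1.68-fold for the other 6 members, which rest on 754 or more reads in each library.

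Genes with the pattern most like that of a member over the 8 libraries were ranked by Pearson's r of the log2 values among some 9450 genes with a mean of at least 10. The r values are a description, since the 8 libraries share 4 animals and the genes were found by a search of the whole table. For Piezo1 they were Ptpn14 (r = 0.98), a phosphatase that binds YAP, Aebp1 (0.96), a collagen-binding matrix protein, and Diap3 (0.95), an actin-nucleating formin. Ptpn14 read 340.2 and 218 normalized CPM in static and 210 and 208 in stretched WT cultures, with the highest value in the static culture of animal 3, as for Piezo1. For Piezo2 they were Rbm6 (0.97), Tnks2 (0.97) and 2700081O15Rik (0.97), of which Rbm6 spanned only 54.1 to 72.7. For Trpv2 they were Kctd12 (0.97), Fam129b (0.96) and Sept8 (0.96), all highest in the static culture of CAV1-/- animal 1. For Trpc1 they were Esf1 (0.99), Txndc17 (0.98) and Wdr44 (0.98), for Pkd2 Ddx6 (0.99), Usp42 (0.98) and Mamdc2 (0.97), and for Trpv4 Uevld (0.95), Nceh1 (0.94) and Timm44 (0.94).

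Other channels, channel partners and calcium signalling genes were read from 3 lists, and none of their genes passed an adjusted p under 0.05 in the fit without a block. Of 49 other stretch-, swelling- or acid-sensitive channels, 30 were tested, and at an unadjusted p of at most 0.05 in static cultures 2 were higher and 4 lower in CAV1-/- (2.76% and 5.42% of all genes). Lrrc8d, a subunit of the volume-regulated anion channel, read 49.9 and 42.6 normalized CPM in static and 44.4 and 46.4 in stretched WT cultures, against 89.3 and 65.7 and then 76.3 and 72.6 in CAV1-/- cultures. The genotypes did not overlap, as for higher values in 16.1% of all genes in static and 14.6% in stretched CAV1-/- cultures. The log2 fold change was 0.72 (SE 0.17, limma adjusted p = 0.262) in static and 0.70 (limma adjusted p = 0.387) in stretched cultures. Scnn1a, a subunit of the epithelial sodium channel, read 5.25 and 9.04 in static and 1.73 and 8.01 in stretched WT cultures and 0.146 to 0.659 in the 4 CAV1-/- libraries (log2 fold change -2.32, adjusted p = 0.284, and -1.98, adjusted p = 0.515). Kcnk6, a two-pore potassium channel, read 5.92 to 11.6 in WT and 3.30 to 4.76 in CAV1-/- libraries. Lrrc8c, another subunit of the volume-regulated channel, was higher on stretch in every animal, as in 14.5% of all genes. It read 78.1 and 60.8 in static and 107 and 70.2 in stretched WT cultures. In CAV1-/- cultures it read 97.3 and 74.8 when static and 159 and 117 on stretch. Its log2 fold change on stretch over both genotypes was 0.50 (SE 0.19; adjusted p = 0.984), and it passed with the block (adjusted p = 0.0327). The only other gene of the 3 lists called for this mean with the block was Cav1 among the partners, where 0.856% of all genes were called lower. Its log2 fold change on stretch was -0.46 (limma adjusted p = 0.991 without and 0.0467 with the block). That mean includes the CAV1-/- libraries, in which Cav1 read 12.8 to 34.5 normalized CPM. Within 1 genotype Cav1 was not called, at -0.29 in WT and -0.64 in CAV1-/- MCs (limma adjusted p = 0.318 and 0.134 with the block). The rule for named genes also gave Tmc6 (41.3 to 51.3 normalized CPM in WT and 27.8 to 36.0 in CAV1-/- libraries), Tmc7 (1.48 to 2.07 and 2.88 to 6.45), Asic3 (7.27 to 28.3 and 14.4 to 30.8) and Ano6 (199 to 279.7 and 228 to 260.3).

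Among partners of the channels, 27 of 34 were tested and 1 was higher and 4 lower in static CAV1-/- cultures at an unadjusted p of at most 0.05 (2.76% and 5.42% of all genes). Cav1 was among the 4. Aqp5, a water channel that acts with Trpv4 in volume control, read 8.24 to 18.2 normalized CPM in WT and 1.85 to 5.68 in CAV1-/- libraries (log2 fold change -1.58, SE 0.40, adjusted p = 0.303 in static and -1.70, adjusted p = 0.357 in stretched cultures). Cd44, a hyaluronan receptor, read 303 to 421 in WT and 452 to 623 in CAV1-/- libraries, and Pacsin2, a membrane-bending partner of caveolae, read 199 and 189 in static WT against 145 and 109 in static CAV1-/- cultures. For stretch in WT 1 of the 27 partners was higher at the unadjusted limit (0.82% of all genes), Tmem33, a membrane protein of the endoplasmic reticulum, at 81.1 and 79.9 in static and 115 and 91.9 in stretched cultures. Aqp1 read 2.86 to 7.90 in WT and 1.89 to 3.70 in CAV1-/- libraries, and Stoml1 read 8.04 to 11.9 and 8.15 to 15.3.

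Of 41 calcium signalling genes 36 were tested, with 1 higher and 2 lower in static CAV1-/- cultures (2.76% and 5.42% of all genes) and 3 higher and 2 lower in stretched ones (2.44% and 3.82%) at an unadjusted p of at most 0.05. Rcan2, an inhibitor of the calcium-activated phosphatase calcineurin, read 142 and 117 normalized CPM in static and 36.8 and 91.8 in stretched WT cultures, against 13.8 and 11.5 and then 6.55 and 6.02 in CAV1-/- cultures. Its log2 fold change between genotypes was -3.25 (SE 0.40; adjusted p = 0.0728) in static and -3.02 (adjusted p = 0.106) in stretched cultures. Itpr1, a calcium release channel of the endoplasmic reticulum, read 177 and 196 in static and 73.8 and 133 in stretched WT cultures and 50.4 to 78.3 in CAV1-/- libraries (-1.44, SE 0.30, adjusted p = 0.203 in static cultures). Mesothelial markers were lower in the same CAV1-/- libraries, and their part in these values was not tested. Camk2g, a calcium-dependent kinase, read 70.1 to 89.7 in WT and 96.0 to 135 in CAV1-/- libraries, and Atp2b4, a calcium pump of the plasma membrane, read 36.0 to 119 and 106 to 166. Nfat5, the transcription factor of osmotic stress, read 149 and 143 in static and 165 and 167 in stretched WT cultures, and 138 and 160 in static and 229.7 and 219 in stretched CAV1-/- cultures. All 4 animals were higher on stretch, as in 14.5% of all genes. The log2 fold change was 0.59 (SE 0.11, limma adjusted p = 1.00) in CAV1-/- and 0.39 (SE 0.08, limma adjusted p = 0.984) over both genotypes. The median log2 fold change of the 36 genes was within 0.1 of that of all genes in each comparison.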

How the data were processed

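RNA was polyA-selected (NEBNext Ultra kit) and sequenced as single reads. Per the study's methods, adapters were removed with Cutadapt, RSEM gave expected read counts per gene on the GRCm38 transcriptome, and edgeR's TMM factors scaled them. The values the authors deposited, for 13687 genes, are this signal in TMM-normalized CPM. In each library 100% of values were whole multiples of 1 constant (tolerance 0.01 reads), from which reads were recovered. The floor was 3 reads, and intervals and floors cover counting error only.

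A pseudocount of 1 was added before log2, so fold changes of low genes are understated. Genes at 1 or more in at least 2 libraries were tested (13665; 22 removed). limma (version 3.58.1, R version 4.3.3) was fitted to all 8 libraries with 1 mean per group, an intensity trend and Benjamini-Hochberg adjustment (4 residual degrees of freedom), and all tests were two-sided. For the stretch comparisons the animal served as the replicate block in a further fit, because the labels give static and stretched cultures of 1 animal; deviations of paired cultures from their group means correlated with r = 0.70 in WT and 0.85 in CAV1-/- over 13665 genes. The fit without a block was also run on simulated counts with independent libraries and large planted changes. That setting lacks the pairing by animal, so it does not show how the fit performs on these libraries. Alternatives were pseudocounts of 0.1 and 5, other filters, scalings and eBayes settings, the blocks, edgeR (version 4.0.16) and DESeq2 (version 1.42.0) on recovered reads, and leaving out cultures or animals.

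The members and gene lists were chosen with earlier results of these data known. Named are all members, Cav1, and of each of the 3 lists the genes past the threshold, the 5 with the lowest p between genotypes and the 3 with the lowest p on stretch, beside the 3 genes most like a member and the marker genes given beside a member. Marker genes were given where a member moved with them, so that likeness is not a separate result. Lengths and positions are from GENCODE M21 (13597 identifiers matched) and promoters from RefSeq (GRCm38.p6).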

Additional observations from a re-analysis of the deposited data

Results flagged for a closer look

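Tmem63b values on stretch lay on opposite sides of the static value in the 2 genotypes. The 95% Poisson intervals of the paired cultures overlapped in all 4 animals. Such overlap alone does not show that a distance is within counting error. Stretched WT cultures lay below their static pair (-0.03 and -0.02 on the log2 scale) and stretched CAV1-/- cultures above it (0.15 and 0.07), a division shared by 8.98% of all genes. The difference of the responses, CAV1-/- minus WT, was 0.14 (SE 0.17; limma adjusted p = 1.00), so a difference between genotypes was not shown. Groups of 2 cultures are too small for a search for outlying samples.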

How the results depend on the processing

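No alternative called a member in any comparison, apart from Piezo2 for stretch over both genotypes with the replicate block. With 1 animal left out, that fit has 1 residual degree of freedom. Whether Piezo2 was called then depended on the animal left out, as did the number of genes called in the whole table. Over all members, 13 of 784 log2 fold changes turned in sign under alternatives other than leaving out a single culture, and 62 of 320 when 1 culture was left out. The cause was not tested. With quantile normalization Trpv4 in WT was 0.041 on stretch. Without both cultures of CAV1-/- animal 1 (chosen after seeing the data) stretch in CAV1-/- gave 0.054 for Piezo1 and 0.036 for Trpv2, static genotypes 0.57 for Piezo2 and -0.23 for Trpc1, stretched genotypes -0.013 for Trpv2 and -0.22 for Trpc1, the interaction 0.015 for Trpc1 and stretch over both genotypes 0.052 for Trpv2. With the block and 1 animal left out (also chosen after seeing the data), stretch over both genotypes gave 0.052 for Trpv2 without animal 1, 0.085 for Trpv4 without animal 3, and -0.011 for Trpm7 and -0.093 for Pkd1 without animal 4.

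With 1 culture left out in turn, the log2 fold changes that turned in sign ranged as follows. For stretch in WT they were -0.33 to 0.75 for Piezo2, -0.53 to 0.21 for Pkd1, -0.067 to 0.17 for Pkd2, -0.11 to 0.060 for Tmem63b, -0.20 to 0.053 for Trpm7, -0.55 to 0.69 for Trpv2 and -0.41 to 0.30 for Trpv4. For stretch in CAV1-/- they were -0.21 to 0.14 for Piezo1, -0.066 to 0.39 for Pkd2, -0.27 to 0.82 for Trpc1, -1.19 to 0.58 for Trpv2 and -0.29 to 0.089 for Trpv4. Between static genotypes they were -1.38 to 0.57 for Piezo2, -0.036 to 0.16 for Pkd2, -0.23 to 0.86 for Trpc1 and -0.50 to 0.21 for Trpv4. Between stretched genotypes they were -0.10 to 0.069 for Piezo1, -0.0013 to 1.63 for Piezo2, -0.17 to 0.57 for Pkd1, -0.056 to 0.40 for Pkd2, -0.22 to 0.55 for Trpc1, -0.18 to 0.066 for Trpm7 and -0.087 to 1.16 for Trpv2. For the interaction they were -0.12 to 0.34 for Pkd2, -0.69 to 0.40 for Trpc1, -1.25 to 0.52 for Trpv2 and -0.40 to 0.32 for Trpv4. For stretch over both genotypes they were -0.13 to 0.24 for Pkd1, -0.0078 to 0.22 for Pkd2, -0.0015 to 0.086 for Tmem63b, -0.56 to 0.33 for Trpv2 and -0.26 to 0.10 for Trpv4.

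The number of genes called between static genotypes was 10, and 6 with eBayes without trend, 246 with the replicate block, 2 with the animal as a random effect, 0 with only the libraries of the comparison, 2 with edgeR, 309 with DESeq2, 0 without both cultures of animal 1 and 0 to 5 with 1 culture left out. Between stretched genotypes it was 8, and 110 with the block, 0 with only the libraries of the comparison, 237 with DESeq2, 0 without both cultures of animal 1 and 0 to 5 with 1 culture left out. For stretch it was 0, and in WT 3 with DESeq2, in CAV1-/- 1 with the block and 7 with DESeq2, and over both genotypes 201 with the block and 34 with DESeq2. With the block it was 5, 124 and 769 without animals 2, 3 and 4 and 0 without animal 1, each with 1 residual degree of freedom. The block of the genotype comparisons joins different animals that share only a number (r of their deviations 0.52 in static and 0.48 in stretched cultures), and no member was called with it. With the longest transcript as length, the level per kb was 81.6 for Piezo1, 32.4 for Tmem63a, 27.6 for Pkd2, 23.4 for Tmem63b, 18.1 for Trpm7, 15.2 for Pkd1 and 1.24 for Trpc1, and Tmem63a then overlapped Pkd2 and Tmem63b. Depth limits Trpv4 (18 to 51 reads) and Trpc1 (32 to 184 reads) most.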

Other observations

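Channels outside the member list were also present at levels comparable with the middle members. Per kb of annotated exon, Ano6, a calcium-activated scramblase and channel, reached a mean of 19.9 normalized CPM over the 8 libraries (range 16.2 to 22.8), and Gja1, the gap junction protein connexin 43, also reached 19.9 (12.01 to 24.996). Tmem120a, a membrane protein studied in mechanosensation, reached 18.5 (15.05 to 21.9). The volume-regulated anion channel was represented by its obligatory subunit Lrrc8a at 14.7 (10.8 to 17.4) and by Lrrc8c at 12.5 (7.94 to 20.8). All 5 lay below Piezo1 in every library. Asic3, an acid-sensing channel of sensory neurons, ranged more widely, from 7.27 normalized CPM in a static WT culture to 30.8 in a stretched CAV1-/- culture. It was higher on stretch in all 4 animals (9.37 to 28.3 and 7.27 to 9.55 in WT, 21.6 to 30.8 and 14.4 to 22.4 in CAV1-/-). Such a rise was found in 14.5% of all genes.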
